A study of Mus musculus with 9 samples.

Results

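The unfolded protein response was described through 10 genes in intestinal epithelial cells (IECs), chosen by symbol from the 46095 symbols of the count table. They were the sensors Ern1, Ern2 and Atf6, the transcription factors Xbp1, Atf4, Ddit3 and Creb3l1, and the chaperones and cochaperones Hspa5, Dnajb9 and Sdf2l1. All 10 were found and all 10 passed the filter on low counts. The study asked how loss of the H3K36 methyltransferase Setd2 changes Smad4-deficient colon epithelium during chemically induced carcinogenesis. RNA-seq was performed on colon IECs of 4 Smad4Vil-KO mice (libraries S-1 to S-4) and 5 Smad4Vil-KO;Setd2Vil-KO mice (libraries DDKO-1 to DDKO-5).

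Both groups were on a C57BL/6J background and carried floxed Smad4 with a Villin-Cre transgene, which deletes floxed genes throughout the intestinal epithelium and leaves them intact in stroma and leukocytes. The DDKO mice carried floxed Setd2 in addition. All mice received the carcinogen azoxymethane (AOM, 10 mg/kg) at 8 weeks of age and then 2% dextran sodium sulphate (DSS), an agent that damages the mucosa. At 10 days the epithelium was released from the colon by EDTA. Since Smad4 was deleted and AOM/DSS given in both groups, neither a wild-type nor an untreated level of any member was measured here.

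Proteins bound for secretion or for membranes fold in the endoplasmic reticulum (ER), and the unfolded protein response matches the folding capacity of the ER to that load. The ER-resident chaperone BiP, encoded by Hspa5, binds unfolded chains and holds the sensors inactive. IRE1 splices Xbp1 mRNA, PERK phosphorylates eIF2alpha and so favours translation of Atf4, and ATF6 is cleaved in the Golgi to a transcription factor, and together these raise chaperones, degradation factors and, when stress persists, the proapoptotic factor CHOP. In the colon the goblet cells, which make the gel-forming mucin Muc2, carry a heavy folding load, and they express a form of IRE1 of their own, IRE1beta, encoded by Ern2.

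The total count per library was 12487129 to 17120202, and a single read equalled 0.0593 to 0.0793 CPM (read counts after scaling by the TMM-adjusted total of the library). Setd2 was 99.0 to 120 CPM in the S libraries and 53.8 to 86.9 CPM in the DDKO libraries, a log2 fold change of -0.77 ± 0.14 (SE, edgeR quasi-likelihood test, adjusted p = 0.0076). Smad4 ranged from 54.2 to 92.6 CPM in S and from 38.2 to 114 CPM in DDKO, and gene counts cannot tell a deleted exon from an intact gene. Of 14593 genes tested, 1941 passed an adjusted p under 0.05 (13.3%), 986 higher and 955 lower in DDKO. The count was 1018 without S-1, 1204 without S-2, 847 without S-3, 1183 without S-4 and 1273 without DDKO-4, and 2930 without the 3 libraries named next. DDKO-1, DDKO-2 and DDKO-5 held 3857 to 4907 counts of Y-linked genes and every other library at most 28. Xist had 5 or 6 counts in these 3 libraries and 17833 to 26617 in every other library. The labels give no sex. By these counts sex was not balanced between the groups, as every S library was of the female pattern, so that sex was partly confounded with genotype. The fit was repeated with a term for the 3 libraries with Y-linked counts and without them. DDKO-1 and DDKO-2 stood apart from the other DDKO libraries, with a chi-square per gene of 46.4 to 70.3 against them and 20.9 between each other, and S-1 from the other S libraries (27.5 to 42.4, beside 11.6 to 13.0 among the rest). Mitochondrial genes took 5.62% and 6.29% of the counts of DDKO-1 and DDKO-2 and 8.12% to 10.3% elsewhere, and values without both are given after the members. The 7 epithelial markers summed to 12200 to 14000 CPM in S and 11400 to 13500 CPM in DDKO, and none of them passed the test.

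Most members had slightly lower means in the DDKO libraries, and 1 of them passed the test, while Muc2 fell 3.07-fold. Log2 fold changes of DDKO over S were negative for 9 of the 10 members, against 50% of all genes tested, with a median of -0.21 against -6e-04 for all genes. One member, Sdf2l1, passed an adjusted p under 0.05, and it was lower in DDKO, where 6.54% of all genes tested were called lower and 6.76% higher. Sdf2l1, Ern2 and Dnajb9 had an unadjusted p under 0.05, all of them lower in DDKO, beside a background of 15.3% of all genes in that direction and 30.6% in either. Summed over the 10 genes, the members took 1790 to 2010 CPM in the S libraries and 1620 to 1880 CPM in the DDKO libraries.

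Muc2, the reference for these genes in goblet cells, was 7540, 5370, 6790 and 4830 CPM in S-1 to S-4 and 1670, 2750, 1870, 1700 and 2010 CPM in DDKO-1 to DDKO-5. Every DDKO library lay below every S library. The log2 fold change was -1.62 ± 0.18 (SE, 95% interval -2.01 to -1.22), a 3.07-fold higher mean in S, with an adjusted p of 0.000542 in edgeR's quasi-likelihood test. In bulk samples, fewer cells of a type and less RNA of a gene per cell cannot be told apart.

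**Figure D1:**
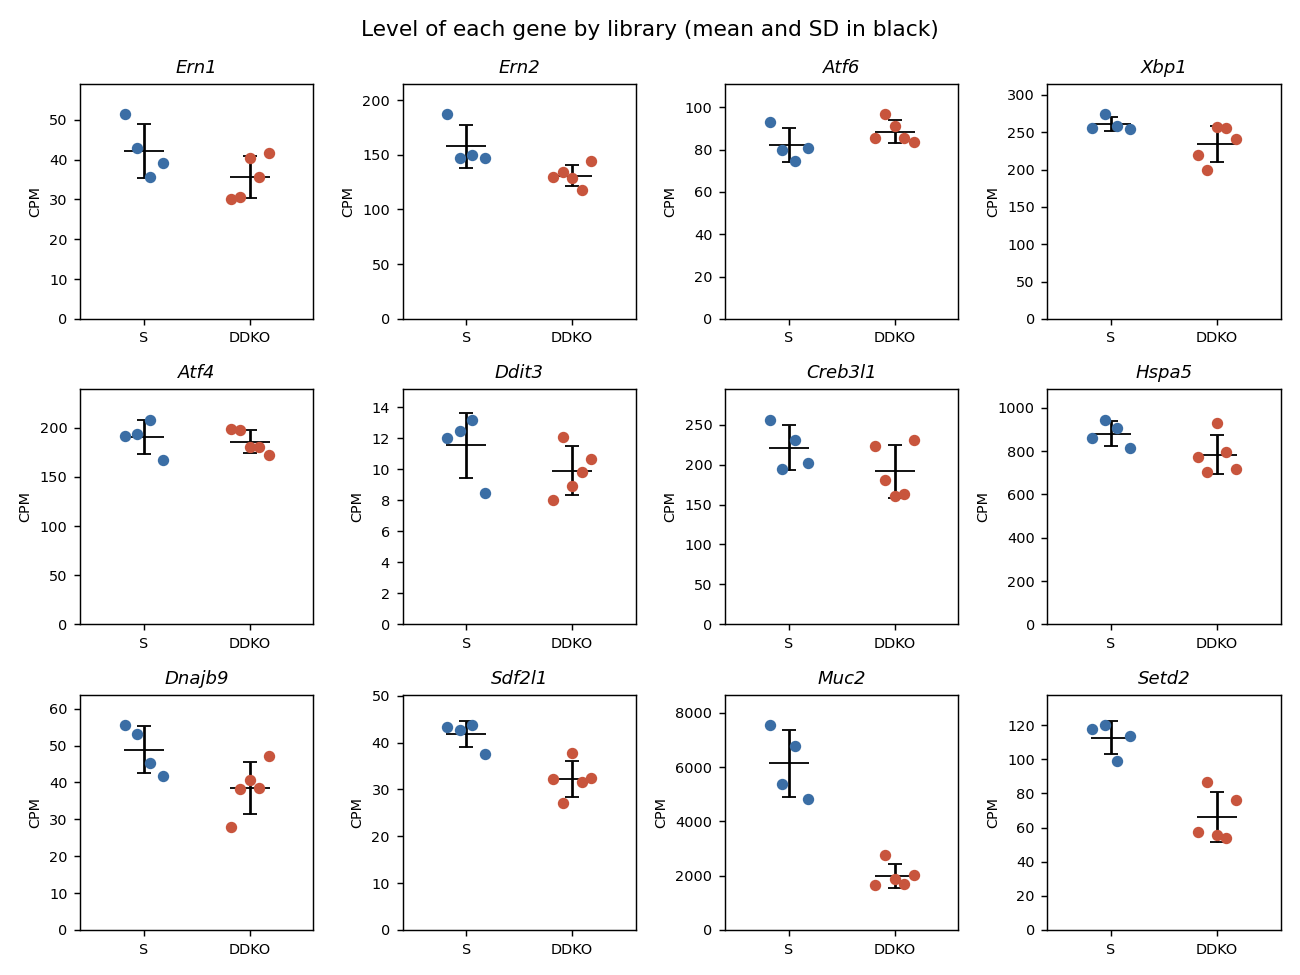
Level in CPM (vertical axes, from 0) of the 10 members, Muc2 and Setd2 in each of the 4 S and 5 DDKO libraries, 1 point per library, with the group mean and SD in black. The groups overlap in 9 of the 10 members and are separate for Ern2, Muc2 and Setd2.

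Among the sensors, Ern2, the IRE1 of mucus-secreting epithelium, was 187, 147, 150 and 147 CPM in S-1 to S-4 and 130, 134, 129, 118 and 144 CPM in DDKO-1 to DDKO-5. All 5 DDKO libraries lay below all 4 S libraries, and S-1 stood above the other S libraries. Ern2 was the one member whose groups did not overlap, where 8.87% of all genes tested were separated in that direction. Its log2 fold change was -0.27 ± 0.09 (SE, 95% interval -0.47 to -0.06), and it missed the threshold with an adjusted p of 0.0798 in edgeR's test. Without S-1 it was -0.17 (adjusted p = 0.219).

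S-1 was also the library with the most goblet cell transcript. The 12 goblet cell markers summed to 32500 CPM in S-1, to 11300 to 14700 CPM in the other S libraries and to 3820 to 15000 CPM in the DDKO libraries, with DDKO-5 the highest of the latter. Of the 12, Muc2 alone passed the test (8.33%, beside 13.3% of all genes in either direction and 6.54% lower). The median log2 fold change of the list was -0.37, and 10 of the 12 were negative. The positive ones were Retnlb (0.29 ± 0.52, adjusted p = 0.74) and Spdef (1.9998 ± 0.85, adjusted p = 0.137). Spdef was at 9.38 CPM in DDKO-2 and at most 1.40 CPM in every other library. Clca1, a protein that goblet cells secrete with mucus, took 16000 of the 32500 CPM in S-1, and its groups overlapped (log2 fold change -1.55 ± 0.75, adjusted p = 0.187). It was -0.71 without S-1, and -2.43 without DDKO-5, where it passed (adjusted p = 0.0286). The part of goblet cell number in the Ern2 values was not tested.

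Ern1, the IRE1 present in nearly all cells, was 51.4, 42.9, 35.6 and 39.1 CPM in S-1 to S-4 and 30.2, 30.5, 40.3, 35.7 and 41.7 CPM in DDKO-1 to DDKO-5. DDKO-1 and DDKO-2 lay below every S library and the other 3 within the S range. For Ern1 the log2 fold change was -0.24 ± 0.14 (95% interval -0.54 to 0.05, adjusted p = 0.248), and -0.13 without S-1 (adjusted p = 0.575). Per length of the annotated exons, Ern2 was at 53.2 ± 6.60 FPKM (SD, n = 4) in S and 44.2 ± 3.16 FPKM (n = 5) in DDKO, and Ern1 at 5.17 ± 0.831 and 4.37 ± 0.654 FPKM. The ratio of Ern2 to Ern1 per length was thus 9.45 to 11.6 in S and 8.83 to 12.1 in DDKO, ranges that overlap.

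Atf6, the sensor that becomes a transcription factor on cleavage, was the one member with a positive log2 fold change. It was 93.3, 79.9, 74.7 and 81.0 CPM in S-1 to S-4 and 85.3, 96.7, 91.2, 85.3 and 83.8 CPM in DDKO-1 to DDKO-5. S-1 lay among the DDKO libraries and the other S libraries below them all. Its log2 fold change was 0.11 ± 0.08 (95% interval -0.08 to 0.29, adjusted p = 0.414), and it was 0.18 without S-1 and 0.07 without S-3. Eif2ak3, which encodes PERK, the sensor that is no member of the set, was at 70.2 ± 6.14 CPM (SD, n = 4) in S and 67.3 ± 4.82 CPM (n = 5) in DDKO (log2 fold change -0.06 ± 0.09, adjusted p = 0.655). Of Mbtps1 and Mbtps2, the Golgi proteases that release ATF6, Mbtps2 had the larger difference, at 29.0 ± 0.427 CPM in S and 35.2 ± 3.27 CPM in DDKO, with every DDKO library above every S library (adjusted p = 0.0598, and 0.0292 without DDKO-5), where 8.34% of all genes were separated upwards.

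Xbp1 encodes the factor that IRE1 activates by removing a short stretch from its mRNA. The stretch is shown because the count table could not resolve it. It lies in coding exon 4 of the transcript Xbp1-201 at chr11:5524279-5524304 on the + strand of mm10 (GENCODE M21, gene at chr11:5520659-5525893), and in the window chr11:5524264-5524319 below the capitals mark the 26 bases removed.
Xbp1: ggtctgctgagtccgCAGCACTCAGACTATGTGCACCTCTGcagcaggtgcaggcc
Removal of 26 bases shifts the reading frame, and the protein made from the spliced mRNA is the active factor. Reads of both forms enter the same gene count, so that the Xbp1 values are those of total Xbp1 mRNA.

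Total Xbp1 was 255, 274, 259 and 254 CPM in S-1 to S-4 and 219, 200, 257, 255 and 241 CPM in DDKO-1 to DDKO-5. DDKO-3 and DDKO-4 lay within the S range and the other 3 DDKO libraries below it. For Xbp1 the log2 fold change was -0.15 ± 0.09 (95% interval -0.35 to 0.04, adjusted p = 0.26), and it was -0.10 without DDKO-2. The 3 libraries below the S range were those with Y-linked counts, and against DDKO-3 and DDKO-4 alone the log2 fold change was -0.02.

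Atf4, the factor translated when eIF2alpha is phosphorylated, had the smallest difference of all members. It was 192, 194, 208 and 167 CPM in S-1 to S-4 and 199, 198, 180, 180 and 172 CPM in DDKO-1 to DDKO-5, with every DDKO library inside the S range. DDKO over S was -0.03 ± 0.08 on the log2 scale (95% interval -0.22 to 0.15, adjusted p = 0.809), with a positive sign when scaled by library size alone. Its activity depends on translation, which RNA counts do not measure.

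Ddit3, which encodes the proapoptotic factor CHOP, had the lowest CPM of the members, not corrected for length. It was 12, 12.5, 13.2 and 8.48 CPM in S-1 to S-4 and 8, 12.1, 8.93, 9.81 and 10.7 CPM in DDKO-1 to DDKO-5. The groups overlapped widely, with S-4 the lowest of the S libraries (log2 fold change -0.22 ± 0.17, 95% interval -0.60 to 0.15, adjusted p = 0.394, and -0.35 without S-4). In the annotation 4.73% of the exon bases of Ddit3 are shared with genes on the opposite strand, and whether the counting used strand is not given in the sources used here.

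Creb3l1 encodes OASIS, an ER-membrane factor of secretory cells that is cleaved like ATF6. It was 256, 195, 231 and 202 CPM in S-1 to S-4 and 223, 181, 161, 163 and 231 CPM in DDKO-1 to DDKO-5. DDKO-2, DDKO-3 and DDKO-4 lay below every S library and DDKO-1 and DDKO-5 within the S range. The log2 fold change was -0.20 ± 0.13 (95% interval -0.49 to 0.09, adjusted p = 0.326), and it was -0.12 without S-1 (adjusted p = 0.625). Against DDKO-3 and DDKO-4 alone, the DDKO libraries without Y-linked counts, it was -0.44 ± 0.12 (adjusted p = 0.0306), and with all libraries and a term for Y-linked counts it was -0.45 ± 0.14 (adjusted p = 0.0736).

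Among the chaperones, Hspa5 (BiP) was the most abundant member. It was 863, 945, 906 and 813 CPM in S-1 to S-4 and 771, 704, 931, 795 and 720 CPM in DDKO-1 to DDKO-5. DDKO-3 lay within the S range and the other 4 DDKO libraries below it. For Hspa5 the log2 fold change was -0.17 ± 0.10 (95% interval -0.39 to 0.05, adjusted p = 0.275), and against DDKO-3 and DDKO-4 alone it was -0.03.

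Dnajb9 encodes ERdj4, a J-domain partner of BiP that helps to hold IRE1 inactive. It was 55.5, 53.2, 45.2 and 41.8 CPM in S-1 to S-4 and 27.8, 38.1, 40.6, 38.5 and 47.2 CPM in DDKO-1 to DDKO-5. DDKO-5 alone reached into the S range, and DDKO-1 was the lowest of the 9 libraries. Its log2 fold change was -0.35 ± 0.14 (95% interval -0.66 to -0.03), with an unadjusted p of 0.0337 and an adjusted p of 0.129 in edgeR's quasi-likelihood test.

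Sdf2l1, a component of the BiP chaperone complex in the ER, fell in the DDKO libraries. It was 43.3, 42.8, 43.7 and 37.6 CPM in S-1 to S-4 and 32.2, 27.1, 37.7, 31.5 and 32.5 CPM in DDKO-1 to DDKO-5. Only S-4 and DDKO-3 met, at nearly the same level, and the other libraries were apart. The log2 fold change was -0.38 ± 0.10 (95% interval -0.60 to -0.16), a 1.30-fold higher mean in S, with an adjusted p of 0.0329 in edgeR's quasi-likelihood test. This call was lost when any 1 of S-1, S-2, S-3, DDKO-1, DDKO-2 or DDKO-4 was left out (adjusted p up to 0.102, log2 fold change -0.43 to -0.32 over all 9 omissions). With a term for Y-linked counts the value was -0.28 ± 0.12 (adjusted p = 0.195), and without the 3 libraries that held them -0.27 ± 0.11 (adjusted p = 0.113).

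In the fits that set aside Y-linked counts, the values of Xbp1 and Hspa5 came close to 0, at -0.03 for each with the term and at -0.02 and -0.03 without the libraries. With the term for Y-linked counts the log2 fold change was -0.35 ± 0.12 for Ern2 (adjusted p = 0.0909), -0.31 ± 0.19 for Dnajb9 (adjusted p = 0.345), -0.30 ± 0.23 for Ddit3 (adjusted p = 0.434) and -0.15 ± 0.18 for Ern1 (adjusted p = 0.629). Without the 3 libraries it was -0.35 ± 0.12 for Ern2 (adjusted p = 0.0619), -0.30 ± 0.12 for Dnajb9, -0.30 ± 0.19 for Ddit3 and -0.15 ± 0.14 for Ern1. Atf4 was at -0.08 and Atf6 at 0.10 with the term, and at -0.08 and 0.11 without the libraries. Without DDKO-1 and DDKO-2, a setting chosen after the data were seen, no member passed. The log2 fold change was then -0.30 ± 0.10 for Sdf2l1 (adjusted p = 0.0636), -0.27 for Ern2, -0.21 for Dnajb9, -0.11 for Hspa5, -0.10 for Ern1 and -0.05 for Xbp1, and the members' median was -0.16. The part of the RNA of these libraries in the members' values was not tested.

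**Figure D2:**
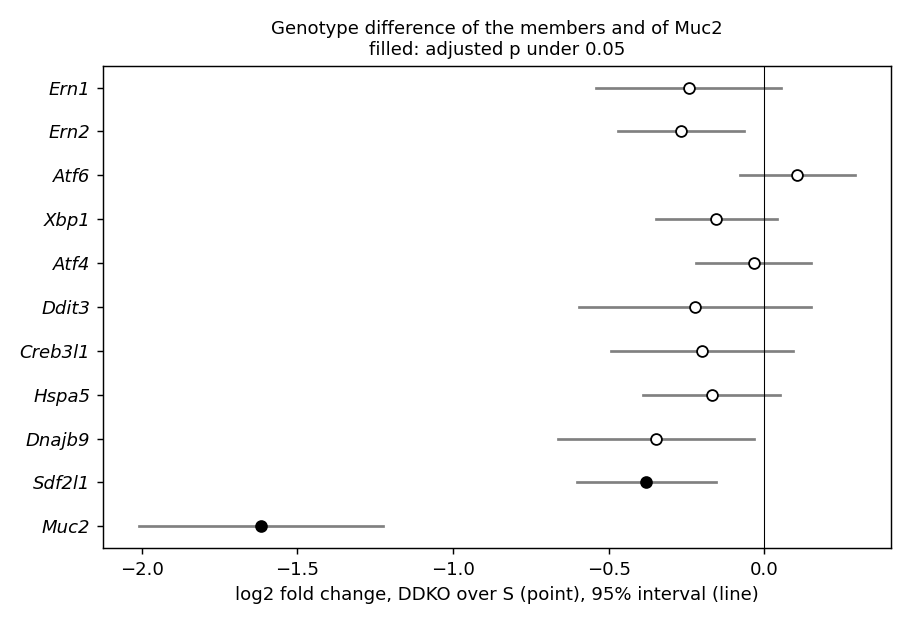
Log2 fold change of DDKO over S (horizontal axis) for each member and for Muc2, with the 95% interval as a line and a filled point where the adjusted p was under 0.05. The intervals of the 10 members lie between -0.66 and 0.29, and that of Muc2 between -2.01 and -1.22.

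Per length of the annotated exons, the order of the members in the S libraries was Hspa5 (209 ± 13.4 FPKM), Creb3l1 (84.9 ± 10.8), Atf4 (80.7 ± 7.23), Xbp1 (80.2 ± 2.85), Ern2 (53.2 ± 6.60), Sdf2l1 (37.8 ± 2.58), Dnajb9 (19.2 ± 2.54), Atf6 (8.91 ± 0.853), Ddit3 (6.74 ± 1.23) and Ern1 (5.17 ± 0.831). Creb3l1, Atf4 and Xbp1 did not differ beyond their spread, nor did Ddit3 and Ern1. In the DDKO libraries Atf4 was at 78.8 ± 5.11, Creb3l1 at 73.7 ± 12.7 and Xbp1 at 72.2 ± 7.54 FPKM, which again lay within each other's spread, and Hspa5 remained the highest at 185 ± 21.3 FPKM.

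Set beside Muc2, the members differed far less between the genotypes, and no member's 95% interval met that of Muc2. For each 1000 CPM of Muc2 the S libraries held 22.1 to 30.5 CPM of Ern2 and the DDKO libraries 48.7 to 78.0 CPM. For Creb3l1 the range was 33.9 to 41.9 CPM in S and 65.9 to 134 CPM in DDKO. For Hspa5 it was 114 to 176 CPM in S and 256 to 498 CPM in DDKO. The Muc2 level enters each ratio, and it was at most 2750 CPM in DDKO and at least 4830 CPM in S. A gene of steady level would therefore also have a higher ratio in DDKO. The ratios of all 10 members were higher in every DDKO library than in every S library, which the denominator alone can give. The share of all genes with such ratios was not computed, so this describes Muc2 and nothing particular to the members. With log2 CPM of Muc2 as a covariate, 90.6% of whose variance lay between the genotypes, the members' median log2 fold change was 0.16 and none passed the test.

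Within the genotypes, after subtraction of each genotype's mean from log2 CPM, the members did not move as a block over the 9 libraries. As descriptions, which share library and depth, the correlation of Hspa5 with Sdf2l1 was 0.84, that of Ern1 with Dnajb9 0.80, that of Ern2 with Creb3l1 0.73 and that of Xbp1 with Hspa5 0.70. Ern2 and Muc2 had a value of 0.62 and Ddit3 and Muc2 of 0.76. Xbp1 with Muc2 was at -0.54 and Hspa5 with Creb3l1 at -0.49. The 3 genes most like Hspa5 by this measure, of 9463 with at least 10 CPM, were Psmd11 (0.97), Fut11 (0.95) and Tmem126a (0.93). The 3 most like Ern2 were C77080 (0.97), Stx3 (0.96) and Hpd (0.96).

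**Figure D3:**
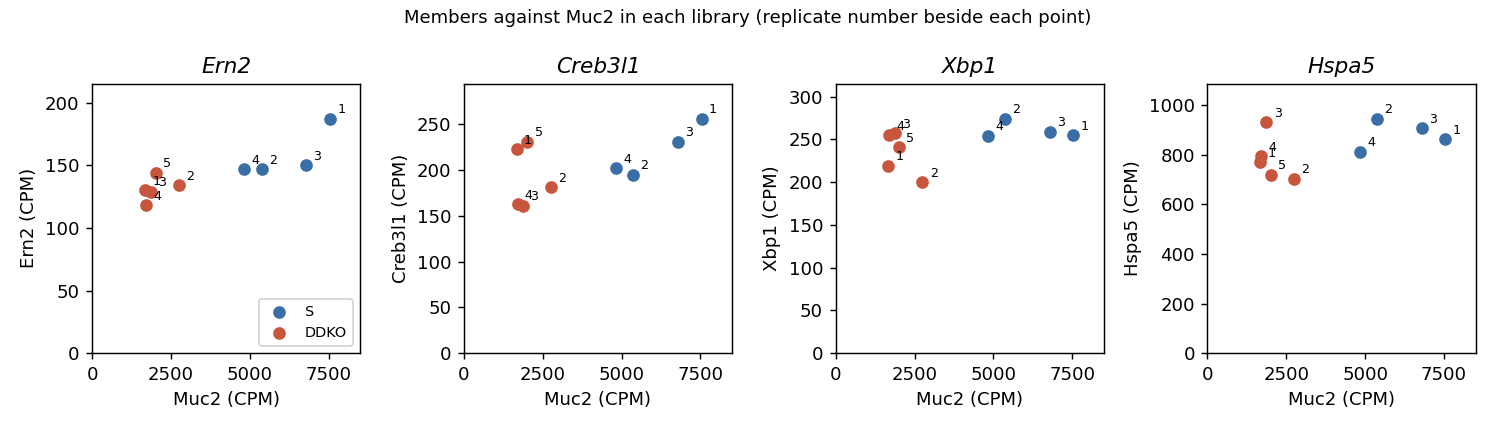
Level of Ern2, Creb3l1, Xbp1 and Hspa5 (vertical axes, CPM, from 0) against Muc2 (horizontal axes, CPM) in each S and DDKO library, with the replicate number beside each point. The DDKO points sit at 1670 to 2750 CPM of Muc2 and the S points at 4830 to 7540 CPM, while the members' levels lie close together.

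The wider secretory pathway was described by 8 lists of sensors, ER-membrane factors, chaperones, disulfide isomerases, degradation factors, translocon and exit components, Atf4 and Ddit3 targets, and kinases of eIF2alpha. They held 102 genes that are no members, 99 of which were tested. Of these 99, 2 were higher and 5 lower in DDKO at an adjusted p under 0.05, which is 7.07%, and their median log2 fold change was -0.01. The share is below the 13.3% called over all genes. The count was 4 without S-1, 4 without S-2, 2 without S-3 and 15 without DDKO-5, it was 3 with a term for Y-linked counts 18 without the libraries that held them and 11 without DDKO-1 and DDKO-2. Of the 7 genes named below, Nupr1 alone passed with the term (adjusted p = 0.0114), and the others had adjusted p-values of 0.0542 (Dnajc10), 0.0623 (Ube2g2), 0.0691 (Erp29), 0.0691 (Syvn1), 0.0828 (Creb3l3) and 0.11 (Derl1). Without the 3 libraries all of the 7 but Derl1 passed (0.0653). Without DDKO-1 and DDKO-2, Derl1 (0.0555) and Ube2g2 (0.0735) did not pass. Of the 99 genes, 16 were higher and 12 lower at an unadjusted p under 0.05, beside 15.3% of all genes in each direction.

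ER-associated degradation, which returns misfolded proteins to the cytosol for destruction, had 3 of 19 tested genes lower and none higher, which is 15.8% beside 13.3% of all genes in either direction and 6.54% lower. They were Syvn1, the ubiquitin ligase HRD1 (-0.35 ± 0.08, adjusted p = 0.0182), Derl1, a channel component (-0.25 ± 0.06, adjusted p = 0.0281), and Ube2g2, a ubiquitin-conjugating enzyme (-0.38 ± 0.10, adjusted p = 0.0379). Syvn1 was 83.7, 95.3, 88.3 and 74.3 CPM in S-1 to S-4 and 68.2, 64.2, 66.0, 67.8 and 68.2 CPM in DDKO-1 to DDKO-5. The DDKO libraries lay close together, all below the S libraries. Derl1 was separated in the same way, at 107 to 116 CPM in S and 88.9 to 97.5 CPM in DDKO. The call of Syvn1 was lost without S-2 or S-3 (adjusted p up to 0.0618), that of Derl1 without S-1, S-2, S-3, DDKO-2 or DDKO-4 (up to 0.094), with library size alone (0.0534) and with no filter on low counts (0.0617), and that of Ube2g2 without S-1, S-2, S-3 or any 1 of DDKO-1 to DDKO-4 (up to 0.112).

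Among chaperones, 2 of 17 tested genes passed (11.8%, beside 13.3% of all genes), Sdf2l1 below and Dnajc10 above the S level. Dnajc10, a disulfide reductase with a J domain that aids degradation, was 216 to 261 CPM in S and 286 to 342 CPM in DDKO (0.40 ± 0.09, adjusted p = 0.015, and 0.0562 without S-3), with no overlap. Hyou1, a large ER chaperone, was at 196 ± 20.8 CPM in S and 147 ± 26.8 CPM in DDKO (adjusted p = 0.065, and 0.0398 without DDKO-3), with a log2 fold change of -0.42, and -0.21 both with the term for Y-linked counts and without those libraries. Sdf2, the paralog of Sdf2l1, was at 64.4 ± 5.97 CPM in S and 47.4 ± 9.99 CPM in DDKO (-0.44 ± 0.14, adjusted p = 0.0651, 0.0108 without DDKO-5 and 0.0205 without the libraries with Y-linked counts).

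Of 14 tested disulfide isomerases and oxidases, Erp29 alone passed (7.14%, beside 13.3% of all genes in either direction and 6.54% lower). It was 74.9 to 85.4 CPM in S and 53.9 to 66.0 CPM in DDKO (-0.42 ± 0.09, adjusted p = 0.0113), with no overlap. Agr2, the isomerase needed for Muc2 folding, was at 1770 ± 246 CPM (SD, n = 4) in S and 1512 ± 309 CPM (n = 5) in DDKO, and its groups overlapped (-0.23 ± 0.16, adjusted p = 0.345). It was -0.14 without S-1, -0.15 without DDKO-1, -0.12 without the libraries with Y-linked counts and -0.13 with their term. None of 18 tested translocon, signal peptidase and exit genes passed. Ssr1, with the lowest adjusted p of them, was higher in DDKO (0.30 ± 0.09, adjusted p = 0.0601).

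Of 23 tested targets of Atf4 and Ddit3, 1 was lower and none higher (4.35%, beside 6.54% of all genes lower). It was Nupr1, a stress-induced chromatin protein, at 127 to 162 CPM in S and 74.4 to 123 CPM in DDKO (-0.72 ± 0.15, adjusted p = 0.0126). The list's median was 0.05. None of the 4 other kinases of eIF2alpha and its phosphatase passed, nor did any of 6 sensors and proteases.

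The 5 ER-membrane factors of the Creb3 family included the largest difference of the pathway. Creb3l3, a factor known from liver and small intestine, was 2.63, 4.92, 3.86 and 3.80 CPM in S-1 to S-4 and 31.8, 45.9, 9.70, 24.2 and 3.95 CPM in DDKO-1 to DDKO-5. It rose by 2.60 ± 0.60 on the log2 scale (adjusted p = 0.0187), though DDKO-5 lay at the S level. The value was 1.73 ± 0.49 without DDKO-1 and DDKO-2 (adjusted p = 0.0417), and 2.15 both without the libraries with Y-linked counts and with their term. The call was lost without S-1, S-3 or S-4 (adjusted p up to 0.0611), in limma-voom (0.104) and, as given above, once Y-linked counts had a term. The small intestinal enterocyte markers moved in the same direction, with 6 of 10 tested higher (60%, beside 6.76% of all genes) and none lower, and summed to 1290 to 1590 CPM in S and 1850 to 2950 CPM in DDKO, with DDKO-5 the lowest of the DDKO libraries. Their part in the Creb3l3 values was not tested. Creb3l2 was at 22.5 ± 1.57 CPM in S and 14.3 ± 5.01 CPM in DDKO (-0.65 ± 0.23, adjusted p = 0.0838, and 0.0421 without DDKO-3), and its log2 fold change was -0.29 both with the term for Y-linked counts and without those libraries.

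**Figure D4:**
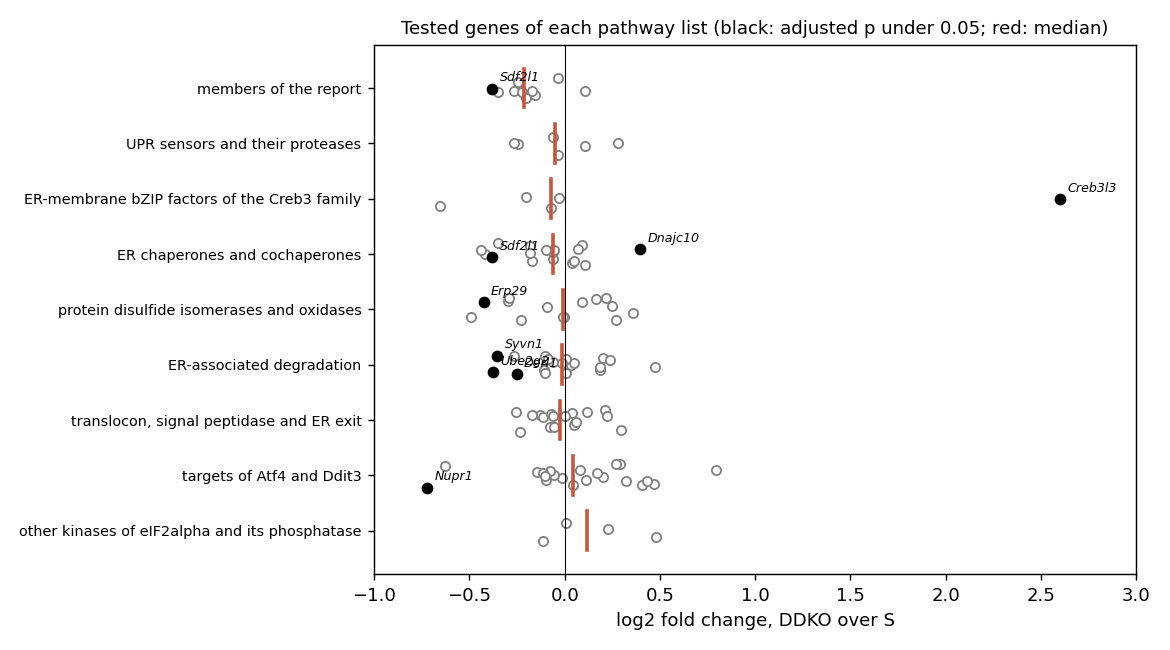
Log2 fold change of DDKO over S (horizontal axis) of each tested gene in the members and the 8 pathway lists (rows), with called genes in black and named and the median of each list as a red bar. Medians lie between -0.21 for the members and 0.12 for the eIF2alpha kinases and phosphatases.

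Other secretory cells could hold these transcripts as well. Of 6 enteroendocrine markers, 4 were higher in DDKO and none lower (66.7%, beside 6.76% of all genes higher), with a summed level of 71.3 to 98.8 CPM in S and 164 to 247 CPM in DDKO, and Chga, a granin of their secretory granules, rose by 1.87 ± 0.20 on the log2 scale (adjusted p = 0.000405). Of 4 tested Paneth cell markers 1 was higher and none lower (25%, beside 6.76% of all genes higher), with sums of 47.4 to 189 CPM in S and 64.9 to 290 CPM in DDKO. Lyz1 alone of the 4 had a negative log2 fold change (-1.67 ± 0.59, adjusted p = 0.0827), so that these markers did not move together. The 11 markers of plasma and B cells, which depend on Xbp1 for antibody secretion, summed to 15.6 to 43.0 CPM in S and 23.1 to 68.2 CPM in DDKO, none of 7 tested passed, and Jchain, the joining chain of secreted antibodies, had a log2 fold change of 1.04 ± 0.33 (adjusted p = 0.0636, 0.0378 without S-2, 0.0176 without DDKO-5 and 0.0364 without the libraries with Y-linked counts). The part of these cells in the members' levels was not tested. None of 8 tested cytosolic heat shock protein genes passed, and of 8 immediate early genes 1 was lower (12.5%, beside 6.54% of all genes).

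The ER stress response element (ERSE) is the promoter motif through which ATF6 and spliced XBP1 raise ER chaperones. It was searched as CCAAT, any 9 bases, CCACG on both strands of RefSeq promoters (GRCm38.p6, 250 bases before to 50 after the start site), in which it was held by 39 of 32851, or 0.119%. Promoters were given for 7 of the 10 members, Xbp1, Ern1, Hspa5, Atf4, Ddit3, Dnajb9 and Sdf2l1, and the exact motif was found in that of Hspa5. Of the 112 pathway genes, members included, 92 had a promoter entry and 10 an exact ERSE, at 11 sites. The sites are shown, each on its own strand with 8 bases on either side, because they are the shared regulatory letters of genes whose levels can be read beside them, and capitals mark the fixed letters.
Hspa5, chr2:34772017-34772051, + strand: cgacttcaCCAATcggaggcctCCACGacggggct
Syvn1, chr19:6046524-6046558, + strand: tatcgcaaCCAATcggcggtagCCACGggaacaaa
Dnajc3, chr14:118937819-118937853, + strand: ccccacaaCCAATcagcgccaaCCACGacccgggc
Pdia6, chr12:17266483-17266517, + strand: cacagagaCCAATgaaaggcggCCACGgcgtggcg
Ero1b, chr13:12565674-12565708, - strand: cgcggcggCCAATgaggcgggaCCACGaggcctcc
Canx, chr11:50325792-50325826, - strand: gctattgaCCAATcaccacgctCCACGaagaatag
Creld2, chr15:88819512-88819546, - strand: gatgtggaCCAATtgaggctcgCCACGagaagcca
Calr, chr8:84847067-84847101, + strand: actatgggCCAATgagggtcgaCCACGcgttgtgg
Hsp90b1, chr10:86705525-86705559, + strand: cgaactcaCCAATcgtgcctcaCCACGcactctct
Hsp90b1, chr10:86705630-86705664, - strand: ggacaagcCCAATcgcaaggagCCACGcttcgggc
Derl3, chr10:75893234-75893268, - strand: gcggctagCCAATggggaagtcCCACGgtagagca
In Hspa5 the motif ran from 65 to 47 bases before the start site, and in Syvn1 from 44 to 26 bases before it.

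Among the genes with an exact ERSE, Syvn1 passed the test and was lower in DDKO, as given above. The log2 fold change was -0.49 ± 0.20 for the oxidase Ero1b (adjusted p = 0.123), -0.29 ± 0.13 for the isomerase Pdia6 (adjusted p = 0.166) and -0.18 ± 0.10 for the BiP cochaperone Dnajc3 (adjusted p = 0.245). Values near 0 were found for the lectin chaperones Canx (-0.06 ± 0.15) and Calr (0.04 ± 0.12), for Creld2 (-0.06 ± 0.13) and for the chaperone Hsp90b1 (0.09 ± 0.12), which holds the motif at both sites shown. Without the libraries with Y-linked counts, Hsp90b1 was at 0.34 ± 0.09 (adjusted p = 0.0249), Canx at 0.24, Calr at 0.15, Ero1b at -0.30, Pdia6 at -0.09 and Dnajc3 at -7e-04. With the term for these counts Hsp90b1 was at 0.33 ± 0.10 (adjusted p = 0.0717) and Dnajc3 at -0.0053. Derl3 had at most 21 counts in any library. Of the 10 genes 7 had a negative log2 fold change, with a median of -0.12, and without the libraries with Y-linked counts 6 were negative, with a median of -0.01. Of all 37 genes with an exact ERSE 17 were tested, of which 13 were negative, beside 50% of all genes, and 1 was called lower, beside 6.54% of all genes, with a median of -0.16.

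The promoter of Sdf2l1, the member that passed the test, is shown beside that of Hspa5, the member with the motif. Both are 300 bases of GRCm38.p6 read 5′ to 3′ on the strand of the gene, with the fixed letters of the ERSE in capitals.
Sdf2l1, chr16:17132334-17132633, - strand: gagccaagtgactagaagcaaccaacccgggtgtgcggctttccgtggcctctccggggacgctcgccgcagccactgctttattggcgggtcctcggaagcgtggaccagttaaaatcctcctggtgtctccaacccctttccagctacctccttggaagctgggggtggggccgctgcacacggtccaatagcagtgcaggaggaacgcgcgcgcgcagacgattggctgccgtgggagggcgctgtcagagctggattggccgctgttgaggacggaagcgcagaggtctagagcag
Hspa5, chr2:34771840-34772139, + strand: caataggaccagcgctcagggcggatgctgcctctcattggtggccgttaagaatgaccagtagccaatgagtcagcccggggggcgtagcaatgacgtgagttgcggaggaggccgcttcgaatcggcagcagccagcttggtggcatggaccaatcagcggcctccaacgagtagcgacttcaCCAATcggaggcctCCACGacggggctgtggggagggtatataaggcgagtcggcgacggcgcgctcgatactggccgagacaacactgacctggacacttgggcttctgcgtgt
No exact match says only that the fixed letters at that spacing are not in this window.

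The second ERSE (ATTGG, any base, CCACG) was in 0.0365% of promoters, the core of the XBP1-binding unfolded protein response element (UPRE) in 0.676% and the core of the amino acid response element, which ATF4 complexes bind, in 0.895%. No member with a promoter entry held any of the 3. Among the other pathway genes the amino acid response core was found at Nupr1, the called Atf4 target, and at 5 further genes, none of which passed the test.

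**Figure D5:**
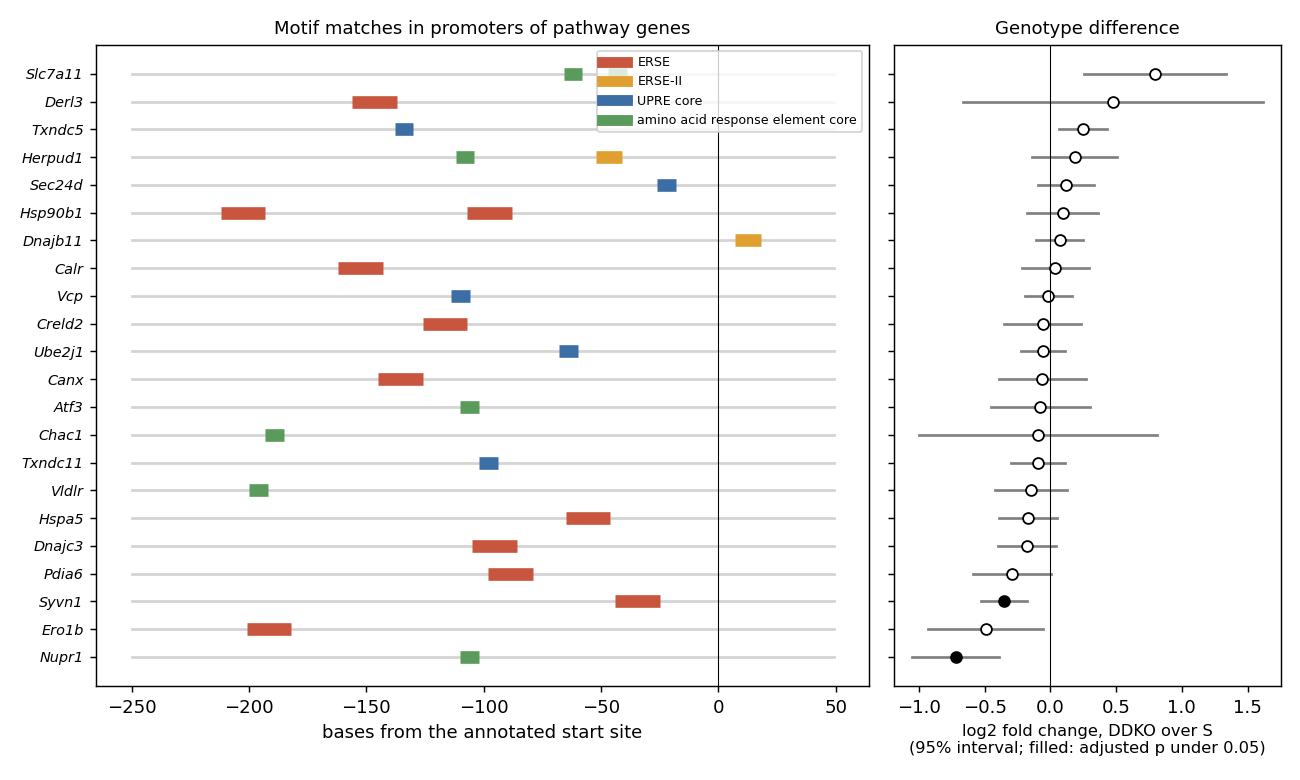
Left, positions of motif matches in the promoters of pathway genes (horizontal axis, bases from the annotated start site). Right, the log2 fold change of DDKO over S with its 95% interval, filled where the adjusted p was under 0.05, which holds for Syvn1 and Nupr1 and for no other gene shown.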

How the data were processed

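RNA-seq counts of 9 libraries were analysed, 4 S and 5 DDKO, grouped by the genotype in the sample labels. The authors deposited whole-number counts per gene symbol, not normalized and not pooled, and 0 columns belonged to other samples. The submitters' processing notes name HISAT2 2.0 and mm10 without their roles, and the counting program, annotation and strand setting are not given in the sources used here. Of the symbols, 27 had been turned into dates (0.125% of counts) and stayed in the table without a name. Replicates of a group differed far beyond sampling noise (chi-square of at least 9.95 per gene).

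In R 4.3.3, genes were kept with filterByExpr (14593), scaled by TMM and tested with the quasi-likelihood test of edgeR 4.0.16 over all 9 libraries with no covariate and Benjamini-Hochberg adjustment over all genes tested. The study's methods name Student's test and analysis of variance for data in general and no test across genes. Standard errors were derived from the fold change and the F statistic of each test, and p-values measure the spread between the libraries of 1 experiment. Alternatives were DESeq2 1.42.0, voom of limma 3.58.1, other scalings and filters, a block, each library left out, terms for Y-linked counts and for Muc2, and the libraries without Y-linked counts. Leaving out DDKO-1 and DDKO-2 together was added after the data were seen. FPKM were computed here from TMM-scaled CPM and the exon union of GENCODE M21.

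The members and all lists were chosen with earlier results of these data known. The genes named are the members, Muc2, Setd2, Smad4, pathway genes with an adjusted p under 0.05, marker genes so called or abundant, the 3 genes most correlated with Hspa5 and with Ern2, and pathway genes with an exact ERSE. Other genes (Eif2ak3, Mbtps1, Mbtps2, Hyou1, Sdf2, Agr2, Creb3l2, Slc7a11, Ssr1, Jchain, Xist, Lyz1, Spdef, Retnlb) were chosen after their values were seen, and not every marker that met the rule is named. Same-numbered libraries of both genotypes were not treated as pairs.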

Additional observations from a re-analysis of the deposited data

Results flagged for a closer look

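In 2 of 22 groups checked (the S and the DDKO libraries of the 10 members and Muc2), 1 library stood apart from the rest of its group by Dixon's criterion, which flags about 1 in 20 groups by chance. Ern2 in S-1 was 187 CPM, with the next S library at 150 CPM and the other end of the group at 147 CPM, so that the gap took 0.914 of the range. Sdf2l1 in S-4 was 37.6 CPM, with the next S library at 42.8 CPM and the other end at 43.7 CPM, a gap of 0.855 of the range. Without S-4 the adjusted p of Sdf2l1 was under 0.05, and without S-1 it was not.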

How the results depend on the processing

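Negative log2 fold changes of Xbp1, Ern1, Hspa5 and Sdf2l1 and the positive one of Atf6 kept their sign in all 20 alternatives, and Muc2 was called in all 19 it entered. The count of members called was 1 (Sdf2l1) with DESeq2, limma-voom, both other scalings and both other filters. It was 0 with a term for Y-linked counts, with the replicate block, with Muc2 as a covariate and without DDKO-1 and DDKO-2 (added after the data were seen), 1 without the libraries with Y-linked counts (Creb3l1, not Sdf2l1), and 0 to 1 with 1 library left out. The wider lists gave 17 calls with DESeq2, 18 without the libraries with Y-linked counts, 3 with a term for them, 11 without DDKO-1 and DDKO-2, 0 with the Muc2 covariate and 2 to 15 with 1 library left out. Over all genes 2930, 1285 and 11 were called without those libraries, with the term and with the Muc2 covariate, and 847 to 2696 with 1 library left out. The cause of these shifts was not tested. DESeq2 also called Hyou1 (adjusted p = 0.0314), Sdf2 (0.0328), Mbtps2 (0.0266), Creb3l2 (0.0405) and Jchain (0.0102). The share of calls higher in DDKO was 50.8%, and 45.5% to 54.3% over the alternatives.

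The genotype took 90.6% of the variance of log2 CPM of Muc2, so that this covariate and the genotype can hardly be told apart, and standard errors rose with it. In that fit the members' median was 0.16, and log2 fold changes were 0.21 for Ern2, 0.26 for Atf4, 0.81 for Ddit3, 0.16 for Dnajb9, 0.16 for Creb3l1, 0.23 for Agr2, -0.028 for Calr, -0.42 for Hsp90b1, 2.45 for Clca1, -0.72 for Jchain and 0.55 for Nupr1, none of them called. Scaled by library size alone, Atf4 was at 0.0027. Without the libraries with Y-linked counts, Canx was at 0.24, Eif2ak3 at 0.022 and Smad4 at -0.70, and with the term at 0.24, 0.018 and -0.71. Without DDKO-1 and DDKO-2, Canx was at 0.14 and Smad4 at -0.12. With 1 library left out, Atf4 ranged from -0.10 to 0.015, Calr from -0.040 to 0.11, Canx from -0.15 to 0.016, Creld2 from -0.17 to 0.0056, Eif2ak3 from -0.11 to 0.0018 and Smad4 from -0.11 to 0.37.

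Same-numbered libraries of both genotypes had correlations of -0.1036 to 0.0878 after subtraction of group means, and other pairs of -0.2607 to 0.3042. These few values cannot show whether same-numbered libraries share more than a number. With the replicate block 1618 genes and 0 members were called (adjusted p of 0.0712 for Sdf2l1, 0.0698 for Syvn1 and 0.0901 for Derl1), and Smad4 was at -0.14. With 4 and 5 libraries, the 95% intervals of the members' log2 fold changes given above set what could be told apart from 0.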
